A study of Mus musculus with 12 samples.

Results

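The genes described here are 10 regulators of the integrated stress response (ISR) in cultured mouse cortical neurons, namely Atf4, Atf5, Atf3, Cebpb, Ddit3, Chac1, Trib3, Ddit4, Sesn2 and Ppp1r15a. They were taken from the raw count table by their symbols, and all 10 were found among its 23893 genes. The 10 symbols were chosen from earlier results of the same counts, that is with their fold changes between these 4 groups known, so their levels, fold changes and calls are given as a description and not as independent evidence of a direction. Levels are in CPM, which are counts relative to the library total, and all 10 members were among the 13720 genes, termed expressed below, whose mean CPM reached 1. In brief, 9 of the 10 had their highest mean in control neurons without drug, and Chac1 and Atf4 showed the clearest gaps between groups. Mean Chac1 mRNA in the other groups was 17.19 to 20.03% of its control level, whereas Atf4 mRNA was lowest with topotecan when Top1 was intact and less low when Top1 was deleted.

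The experiment comprised 12 RNA-seq libraries of polyA RNA, 3 in each of 4 groups. Cultures of embryonic C57BL6 cortical neurons received, at 3 days in vitro (DIV), a lentivirus with either tdTomato or tdTomato-P2A-CRE under the CaMKIIα promoter. The labels call the first kind wild-type and the second Top1cKO, and the study's methods describe both as Top1fl/fl neurons, so the floxed allele was shared by all 4 groups and CRE was the difference. From DIV 15, cultures were kept for 3 days with 300 nM topotecan or with vehicle, and both media held 0.003% DMSO. By treatment, the tdTomato cultures are termed WT-Veh or WT-Topot and those with CRE are termed Top1 cKO-Veh or Top1 cKO-Topot. The viral promoter acts in excitatory neurons and the labels give a transduction of 85 to 90%, so cells that kept Top1, glia among them, were part of every CRE culture. TOP1 relaxes DNA supercoils by cutting a single strand and resealing it, and topotecan traps the enzyme on the cut strand, so the drug acts through TOP1 that is present whereas the deletion removes the enzyme.

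The ISR is a shared response to amino acid shortage, misfolded protein in the endoplasmic reticulum, heme shortage and double-stranded RNA. Kinases that sense these conditions phosphorylate the initiation factor eIF2, which lowers protein synthesis in general while the mRNAs of Atf4 and a few other factors are translated better. ATF4 then forms dimers with other basic leucine zipper proteins and activates genes for amino acid uptake and synthesis, for tRNA charging and, when stress persists, for cell death. The control is thus largely translational, and an mRNA level is not a measure of ATF4 protein.

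The libraries held 1730164 to 4583777 counts, so that 3 counts corresponded to 0.687 to 1.73 CPM. The deleted gene itself, Top1, ranged over 117 to 164 CPM without CRE (6 libraries) and over 27.1 to 44.0 CPM with it (6 libraries), without overlap. The neuronal markers Tubb3, Map2, Rbfox3, Snap25, Nefl and Slc17a7 were present in all groups, with a summed level of 4123 to 5560 CPM per library, and 1 of these 6 was called lower in WT-Topot relative to WT-Veh cells (with the replicate block described below, 4 lower and 2 higher). The 6 microglial markers had means under 1 CPM, and 6 markers of dividing cells summed to at most 5.18 CPM in any library. Astrocyte markers were present and followed the drug, since Gfap, Aqp4, Aldh1l1, S100b, Slc1a3 and Gja1 summed to 937 to 2756 CPM (WT-Veh) and 871 to 2999 CPM (Top1 cKO-Veh) under vehicle, and to 314 to 663 CPM (WT-Topot) and 309 to 1007 CPM (Top1 cKO-Topot) under the drug. In such bulk samples, fewer cells of a type and less RNA per cell cannot be told apart.

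Expressed per kb of exon, so that genes could be compared with each other, Atf4 was by far the most abundant member in WT-Veh cells, with 298 CPM per kb. Exon lengths were taken over all transcripts of the GENCODE vM1 annotation, whereas the counts are over RefSeq exons. The order of members with close values is therefore uncertain. Ddit4 had 98.0, Atf5 62.4, Chac1 37.9, Ddit3 32.2 and Ppp1r15a 27.8 CPM per kb. Sesn2 and Cebpb were close to each other at 18.5 and 17.9 CPM per kb, and Atf3 and Trib3 were the lowest at 6.88 and 4.22 CPM per kb. The last 2 rested on few reads, since Trib3 had 1 to 27 counts in a library and Atf3 5 to 88. All other levels are in CPM scaled by the trimmed mean of M values (TMM), and are compared only within a gene.

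The members shared a feature that their choice did not use, as all were short. On NCBIM37 (mm9), with the GENCODE vM1 annotation, their genomic spans ran from 1504 bases for Cebpb to 18.5 kb for Sesn2, with a median of 3.88 kb against 24.5 kb for 12544 expressed genes found in that annotation. Atf4 lies at chr15:80085614-80087970 on the plus strand, and Chac1 at chr2:119176965-119180117, also on the plus strand. Exons of Atf5, Ddit3, Cebpb and Ppp1r15a overlap exons of a gene on the opposite strand, by 82 bases with each of Nup62 and Il4i1, by 68 bases with Mars, by 312 bases with Tmem189 and by 12 bases with Tulp2. Since the use of strand in counting was not given in the sources used here, reads in these stretches cannot be assigned to either gene with certainty. Atf4, Atf3, Ddit4, Trib3, Chac1 and Sesn2 share no exonic base with another annotated gene.

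ATF4 binds, as a dimer with a C/EBP protein, a composite element in the promoters of its target genes, and the promoters of the members were searched for it. The windows were those of RefSeq on GRCm38.p6, from 250 bases before to 50 bases after each start of transcription, and all 10 members had a window (11 windows in all, of 32851 searched on both strands). The letters TGATGCAAT occurred in 0 members and in 0.192% of all windows, the shorter TGATGCAA in Chac1 and Atf3 and in 0.895%, and TGATGNAA, a form chosen after the promoters had been read, also in Trib3 and in 3.97%. TGACGTCA, the cAMP response element that other ATF and CREB dimers bind, occurred in Ppp1r15a and in 1.79% of windows. A match to TGATGCAAT or TGATGCAA is also a match to TGATGNAA, so these counts overlap. The 4 promoters with a match are printed 5′ to 3′ on the strand of the gene, because they show what Chac1, the member with the deepest fall, and 3 others carry at their starts. Capitals mark TGATGNAA, read here as its reverse complement, in the first 3 and TGACGTCA in Ppp1r15a.
Chac1, chr2:119350992-119351291, plus strand: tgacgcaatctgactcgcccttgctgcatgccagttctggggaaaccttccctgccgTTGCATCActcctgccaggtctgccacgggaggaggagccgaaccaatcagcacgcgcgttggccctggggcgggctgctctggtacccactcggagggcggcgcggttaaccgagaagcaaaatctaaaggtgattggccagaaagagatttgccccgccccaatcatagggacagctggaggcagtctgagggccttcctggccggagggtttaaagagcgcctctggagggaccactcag
Atf3, chr1:191183284-191183583, minus strand: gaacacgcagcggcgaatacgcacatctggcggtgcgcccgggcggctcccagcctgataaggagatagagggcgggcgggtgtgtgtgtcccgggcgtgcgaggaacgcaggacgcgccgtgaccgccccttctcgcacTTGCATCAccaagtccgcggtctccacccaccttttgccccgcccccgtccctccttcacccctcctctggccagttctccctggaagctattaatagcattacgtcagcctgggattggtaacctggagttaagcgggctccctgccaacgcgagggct
Trib3, chr2:152344011-152344310, minus strand: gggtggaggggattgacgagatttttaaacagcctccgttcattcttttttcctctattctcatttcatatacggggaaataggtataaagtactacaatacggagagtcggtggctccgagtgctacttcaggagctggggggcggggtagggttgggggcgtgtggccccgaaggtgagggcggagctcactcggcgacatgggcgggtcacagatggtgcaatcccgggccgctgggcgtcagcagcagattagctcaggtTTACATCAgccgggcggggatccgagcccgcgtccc
Ppp1r15a, chr7:45526219-45526518, minus strand: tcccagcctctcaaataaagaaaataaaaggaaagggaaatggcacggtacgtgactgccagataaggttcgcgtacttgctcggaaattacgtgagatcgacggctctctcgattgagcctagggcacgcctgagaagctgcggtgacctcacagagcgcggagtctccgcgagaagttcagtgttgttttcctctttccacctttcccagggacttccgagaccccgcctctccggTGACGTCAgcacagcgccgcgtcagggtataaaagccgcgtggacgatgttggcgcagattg
The match began 193 bases before the start in Chac1, 110 before it in Atf3, 14 after it in Trib3 and 12 before it in Ppp1r15a. These are matches of letters and not bound sites, and the other 6 members had no such letters in this window.

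**Figure D1:**
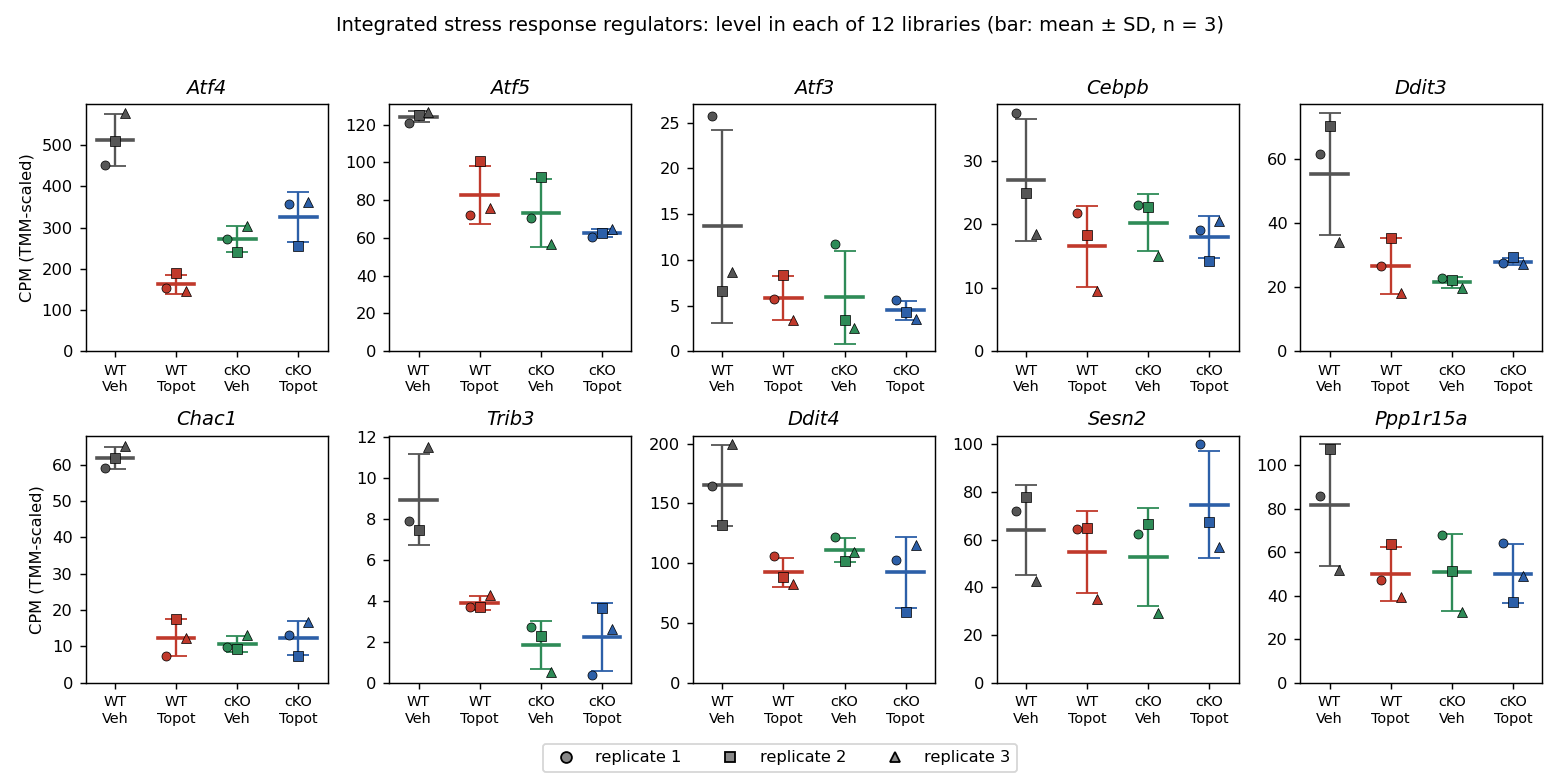
CPM (TMM-scaled) of each of the 10 genes in the 12 libraries, 1 panel per gene with its own axis from 0. Points are libraries with a symbol for each replicate number, and horizontal lines with whiskers are the mean ± SD of 3 libraries. Chac1 stood at 59.1 to 65.1 CPM in WT-Veh and at or below 17.5 CPM in all other libraries, whereas the groups of Sesn2 overlapped.

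The first question was how these genes stood in neurons given topotecan while Top1 was intact. All 10 had a negative log2 fold change in WT-Topot relative to WT-Veh cells, with a median of −0.94 against 0.03 for all expressed genes. In edgeR's quasi-likelihood test over all genes, Atf4 and Chac1 passed an FDR of 0.01. These are 2 of 10 members, where 2.04% of all genes (3.56% of the expressed ones) were called lower, and since earlier results guided their choice nothing is read from that share. With the replicate number as a block, 6 of 10 were called lower (Atf4, Chac1, Ddit3, Ddit4, Atf5 and Ppp1r15a), where 5% of all genes were.

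Atf4, the central transcription factor of the response, had 451, 511 and 577 CPM in WT-Veh libraries 1 to 3 and 153, 190 and 147 CPM in WT-Topot libraries. The highest topotecan-treated library thus lay well under the lowest vehicle-treated one, and the groups did not overlap. Atf4 fell by 1.65 on the log2 scale (standard error 0.18), which is 3.14-fold. Chac1 encodes an enzyme that cleaves glutathione, the main small antioxidant of the cell, and is induced by ATF4. Its levels were 59.1, 61.8 and 65.1 CPM in WT-Veh and 7.37, 17.5 and 12.4 CPM in WT-Topot libraries, again without overlap. Chac1 fell by 2.30 on the log2 scale (standard error 0.27), or 4.92-fold, the largest change of a member in this comparison.

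Ddit3 encodes CHOP, a C/EBP-related factor that ATF4 induces during lasting stress. It had 61.4, 70.1 and 34.0 CPM in WT-Veh and 26.5, 35.2 and 18.0 CPM in WT-Topot libraries. Replicate 3 was the lowest in each group, so the groups overlapped while each pair of libraries with the same number had less Ddit3 after topotecan. The log2 fold change of −1.05 (standard error 0.28) was called with the block, and in the fit without it when WT-Veh replicate 3 was left out. Ddit4, also known as REDD1, restrains the growth-promoting kinase complex mTORC1. Its 165, 132 and 199 CPM in WT-Veh lay above the 106, 88.4 and 82.7 CPM in WT-Topot libraries, a log2 fold change of −0.83 (standard error 0.20) that was called with the block, by edgeR's exact test and by DESeq2 but not in the fit without the block.

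Atf5, a close relative of Atf4 under similar translational control, was tightly grouped in WT-Veh libraries at 121, 125 and 127 CPM. Its 72.4, 100.5 and 75.8 CPM in WT-Topot libraries were all lower, and the log2 fold change was −0.58 (standard error 0.19), called with the block. Ppp1r15a encodes GADD34, the subunit that brings a phosphatase to eIF2 and so ends the response. It had 85.7, 107 and 51.8 CPM in WT-Veh and 47.3, 63.8 and 39.4 CPM in WT-Topot libraries, with overlap, and its log2 fold change of −0.70 (standard error 0.25) was called with the block, and in the fit without it when WT-Veh replicate 3 was left out.

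Trib3, Atf3, Cebpb and Sesn2 were not called in either fit. Trib3 encodes a pseudokinase that binds ATF4 and dampens its activity, and had 7.90, 7.45 and 11.5 CPM in WT-Veh against 3.69, 3.72 and 4.28 CPM in WT-Topot libraries, without overlap, for a log2 fold change of −1.17 (standard error 0.41). Atf3, a stress-induced partner and repressor of the family, had 25.8 CPM in WT-Veh replicate 1 but 6.57 and 8.64 CPM in replicates 2 and 3, against 5.70, 8.30 and 3.43 CPM in WT-Topot libraries, and its log2 fold change of −1.24 (standard error 0.46) became −0.35 without replicate 1. Cebpb, which supplies C/EBP partners to ATF4, had 37.5, 24.98 and 18.4 CPM in WT-Veh and 21.8, 18.3 and 9.42 CPM in WT-Topot libraries. Sesn2 encodes a leucine sensor that holds back mTORC1. It had 72.0, 78.0 and 42.6 CPM in WT-Veh and 64.3, 65.0 and 35.1 CPM in WT-Topot libraries, the smallest difference among the members (log2 fold change −0.23, standard error 0.26). Without overlap between the groups, 5 of 10 members were lower (Atf4, Atf5, Ddit4, Trib3 and Chac1), where 13.2% of expressed genes were. At an unadjusted p under 0.05, 9 of 10 were lower, where 7.18% of all genes were.

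Markers of other cells moved with this comparison, and not all in 1 direction. The oligodendrocyte lineage list had a median log2 fold change of 0.93. Of its 6 markers 0 were called, and with the block 1 was called lower and 1 higher. The astrocyte list had a median log2 fold change of −1.53, with 2 of 6 markers called lower (Gfap and Slc1a3) and 4 of 6 with the block. Interneuron markers summed to 624 to 1477 CPM in WT-Veh and 371 to 735 CPM in WT-Topot libraries. Without the block 0 of these 6 were called lower, and with it 5 of 6. Their part in the lower levels of the members was not tested.

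The second comparison asked what deletion of Top1 did without the drug. Relative to WT-Veh, the log2 fold change of Top1 cKO-Veh cells was again negative for all 10 members, with a median of −0.83, while that of all expressed genes was near 0. Chac1 passed the FDR of 0.01, 1 of 10 members where 0.126% of all genes (0.219% of the expressed ones) were called lower. With the block, 8 of 10 were called lower, all except Sesn2 and Cebpb, where 2.95% of all genes were. The share without overlap was 6 of 10 (Atf4, Atf5, Ddit3, Ddit4, Trib3 and Chac1), where 10.3% of expressed genes were lower in this way. Since WT-Veh libraries also served the first comparison, the changes of both are not independent of each other and their values are set side by side only.

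Chac1 had 9.78, 9.16 and 13.0 CPM in Top1 cKO-Veh libraries, which is a log2 fold change of −2.56 (standard error 0.25), or 5.89-fold. Under topotecan the log2 fold change had been −2.30. Atf4 had 273, 241 and 305 CPM, below every WT-Veh library and above every WT-Topot library. It fell by 0.91 on the log2 scale (standard error 0.17), a 1.88-fold change that was called with the block, by edgeR's exact test and by DESeq2 but not in the fit without the block.

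Ddit3 was uniform in these libraries, with 22.7, 22.2 and 19.5 CPM, all below the lowest WT-Veh library, for a log2 fold change of −1.36 (standard error 0.27). Trib3 was near the limit of detection at 2.74, 2.29 and 0.501 CPM (7, 10 and 1 counts), and its log2 fold change of −2.16 (standard error 0.52) was called with the block and by edgeR's exact test. Atf5 had 70.8, 92.1 and 56.6 CPM (log2 fold change −0.75, standard error 0.20), and Ddit4 had 122, 102 and 110 CPM (−0.57, standard error 0.20). Both lay wholly below WT-Veh, and both were called with the block.

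The remaining members overlapped with WT-Veh. Ppp1r15a had 68.0, 51.5 and 32.6 CPM, and its log2 fold change was −0.68 (standard error 0.29). Atf3 had 11.7, 3.44 and 2.51 CPM, and its log2 fold change of −1.26 (standard error 0.57) was called with the block but not without it and became −0.37 in the fit without the block when WT-Veh replicate 1 was left out. Cebpb had 23.1, 22.7 and 15.0 CPM and Sesn2 62.2, 66.6 and 29.1 CPM, with log2 fold changes of −0.42 (standard error 0.30) and −0.28 (standard error 0.29). In this comparison the astrocyte list had a median log2 fold change of −0.01, and 0 of its 6 markers were called with or without the block. The part of this list in the values of the members was not tested. At an unadjusted p under 0.05, 8 of 10 members were lower in the fit without the block, where 4.82% of all genes were.

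**Figure D2:**
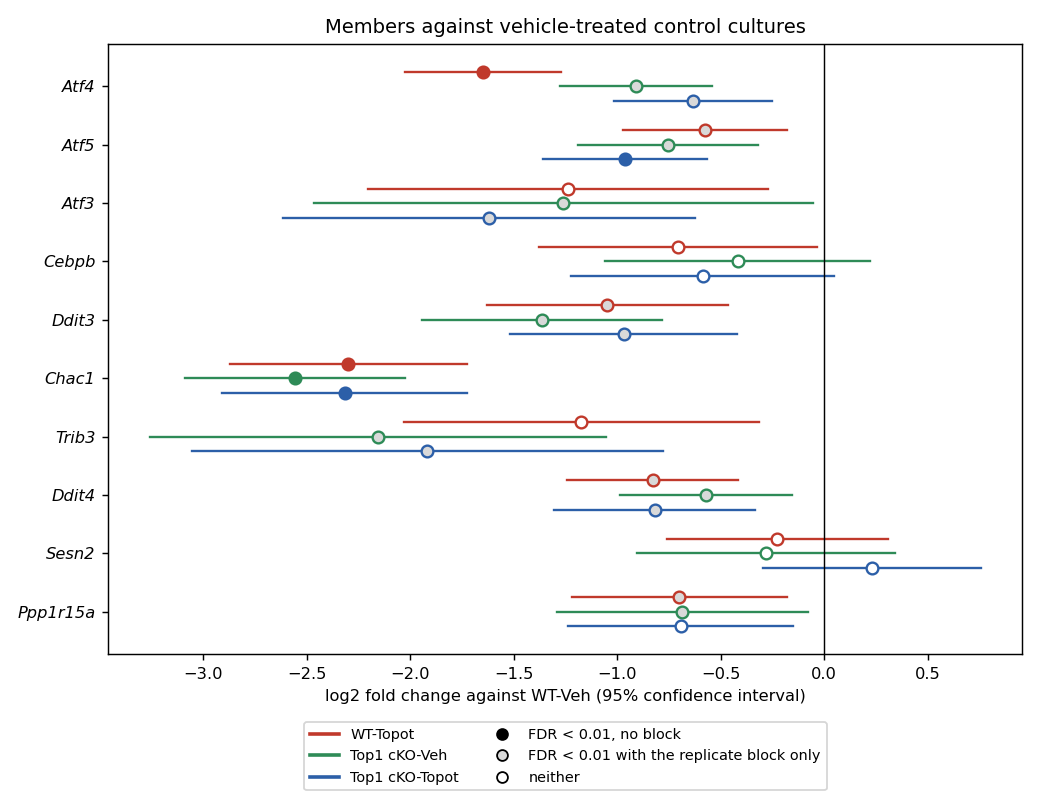
Log2 fold change of each gene relative to WT-Veh (horizontal axis, lines are 95% confidence intervals) in WT-Topot (red), Top1 cKO-Veh (green) and Top1 cKO-Topot (blue). Filled points passed an FDR of 0.01 without the block, grey points with the replicate block but not without it. Chac1 was filled in all 3 comparisons, Atf4 was filled in WT-Topot only, and the intervals of Sesn2 crossed 0 in each.

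In Top1 cKO-Topot cells, which had both the deletion and the drug, 9 of 10 members had a negative log2 fold change against WT-Veh, the exception being Sesn2 at 0.23 (standard error 0.25). Chac1 (13.1, 7.31 and 16.6 CPM) fell by 2.32 on the log2 scale (standard error 0.28), and Atf5 (60.5, 62.8 and 64.7 CPM) fell by 0.96 (standard error 0.19). These were the 2 of 10 members called lower, where 1.21% of all genes were. The Atf5 call was lost without WT-Veh replicate 2 or without Top1 cKO-Topot replicate 1 or 2, which left 1 call, while 5 members were called without WT-Veh replicate 3. With the block, 7 of 10 were called lower (all except Cebpb, Sesn2 and Ppp1r15a), where 4.02% of all genes were. The 3 libraries of each group did not overlap for the same 7 of 10, where 14.4% of expressed genes were lower in this way.

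Atf4 had 358, 255 and 363 CPM in Top1 cKO-Topot libraries, all below WT-Veh, and fell by 0.63 on the log2 scale (standard error 0.18), a change called with the block but not without it. Ddit3 had 27.5, 29.2 and 27.1 CPM (log2 fold change −0.97, standard error 0.26), and Ddit4 102, 58.8 and 115 CPM (log2 fold change −0.82, standard error 0.23). Trib3, at 0.398, 3.65 and 2.62 CPM (1, 11 and 6 counts), had a log2 fold change of −1.92 (standard error 0.55). Atf3 was low in all 3 libraries at 5.58, 4.32 and 3.50 CPM, yet its log2 fold change of −1.62 (standard error 0.48) became −0.73 without WT-Veh replicate 1. Cebpb had 19.1, 14.3 and 20.6 CPM (−0.59, standard error 0.30) and Ppp1r15a 64.1, 37.2 and 49.0 CPM (−0.69, standard error 0.26), and both overlapped with WT-Veh. Sesn2 had the opposite sign, with 99.98, 67.4 and 56.8 CPM and its highest mean in this group. The astrocyte list had a median log2 fold change of −1.21 here, with 0 of 6 markers called and 4 of 6 with the block. The oligodendrocyte lineage list had a median of 1.07, with 0 of 6 markers called and 2 called higher with the block. The part of either list in the values of the members was not tested.

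Whether topotecan acted on these genes once Top1 was deleted was examined within the CRE cultures, a comparison without the WT-Veh libraries. In Top1 cKO-Topot relative to Top1 cKO-Veh cells, 0 of 10 members were called in either direction, and the numbers at an unadjusted p under 0.05 were 0 lower and 0 higher, where 2.62% and 1.69% of all genes were. At the FDR of 0.01, 0.00837% of all genes were called lower and 0% higher, so few genes passed in this comparison at all. The block raised these shares to 1.74% lower and 0.858% higher, and still 0 of 10 members were called, with 1 lower and 3 higher at an unadjusted p under 0.05, where 6.3% and 5.25% of all genes were. The exact test and DESeq2 called 0 members as well, although DESeq2 gave no adjusted p for Atf3, Chac1 and Trib3.

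The intervals of the differences show what this comparison could tell. The log2 fold change of Atf4 was 0.27 (95% confidence interval −0.10 to 0.63) and that of Chac1 0.23 (−0.53 to 0.99), so for both a fall as large as that in WT-Topot cells lay outside the interval. For Ddit3 it was 0.39 (−0.12 to 0.89), and its 3 topotecan-treated CRE libraries lay above the 3 vehicle-treated ones. Ddit3 was the 1 of 10 members higher without overlap, where 5.17% of expressed genes were. For Sesn2 the log2 fold change was 0.50 (−0.10 to 1.10), and was closest to a call with the block (log2 fold change 0.51, adjusted p = 0.0188, edgeR with the replicate block). Atf5 (−0.22), Ddit4 (−0.26), Cebpb (−0.18) and Ppp1r15a (−0.02) were not called, and the intervals of Atf3 and Trib3 reached from −1.53 to 0.78 and from −1.33 to 1.78, too wide to tell. Of the members, 5 of 10 had a positive value. The astrocyte list had a median of −1.27 in this comparison, with 0 of 6 markers called and 4 of 6 called lower with the block. The part of this list in the values of the members was not tested.

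The interaction term of a model on all 12 libraries tested directly whether the drug effect differed between genotypes. Its sign is the drug effect in Top1 cKO minus that in WT cells. All 10 members had a positive term, with a median of 0.79 on the log2 scale against −0.03 for all expressed genes. The Atf3 term became −0.03 without WT-Veh replicate 1. The term uses the WT-Veh libraries, and the members were chosen with their fold changes against these known. Nothing is therefore read from the shared sign or from the median. Atf4 had a term of 1.91 (standard error 0.25, adjusted p = 0.000407, edgeR) and Chac1 of 2.52 (standard error 0.45, adjusted p = 0.00589, edgeR), and these were 2 of 10 members, where 0.398% of all genes were called higher. With the block, Ddit3 joined them (term 1.45, standard error 0.28, adjusted p = 0.000273, edgeR), giving 3 of 10, where 2.44% of all genes were. The Chac1 term kept a value of at least 2.25 but lost the call without WT-Veh replicate 2, WT-Topot replicate 1 or 3, Top1 cKO-Veh replicate 2, or Top1 cKO-Topot replicate 1 or 3, with an adjusted p of at most 0.0169, and lost it too when only genes kept by edgeR's filterByExpr were tested. The level behind the term differed between these genes, since Chac1 was already low in Top1 cKO-Veh cells and stayed there, whereas Atf4 was at an intermediate level in CRE cultures with and without the drug.

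**Figure D3:**
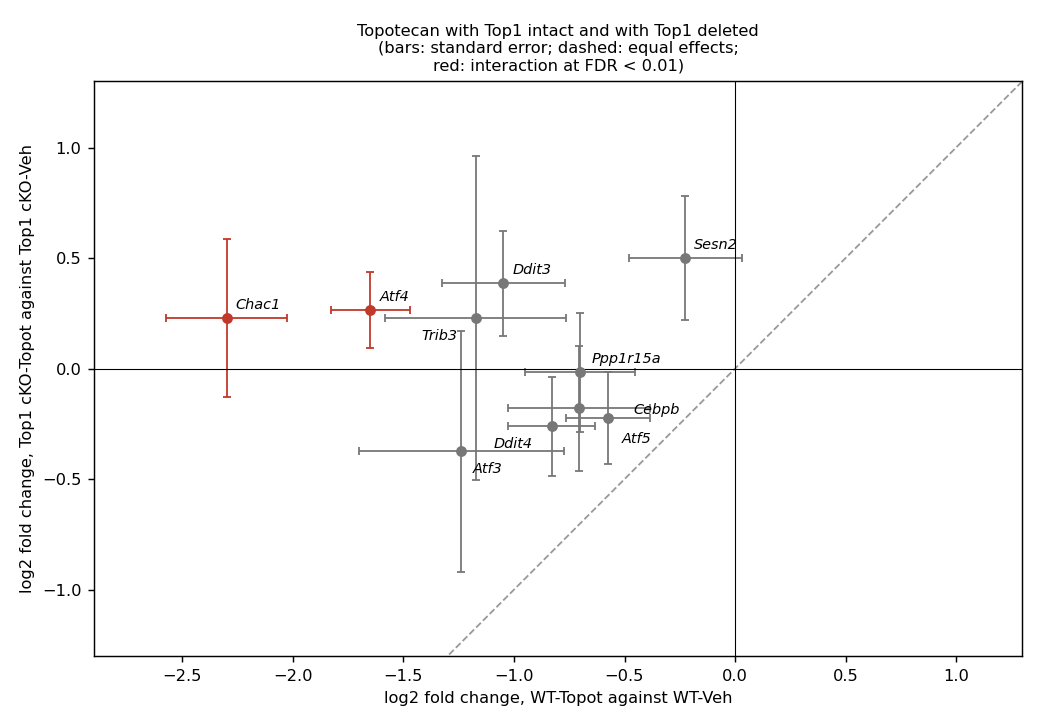
Log2 fold change with topotecan when Top1 was intact (horizontal axis) and when it was deleted (vertical axis), with standard errors. Red marks the genes whose interaction passed an FDR of 0.01 without the block, and the dashed line marks equal effects. All 10 genes lay above the line, with Chac1 at −2.30 and 0.23 and Atf4 at −1.65 and 0.27 farthest from it.

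Under topotecan, cells with and without Top1 differed in a single called member. Atf4 was higher in Top1 cKO-Topot than in WT-Topot cells by 0.99 on the log2 scale (standard error 0.18, adjusted p = 0.000907, edgeR), with the 255 CPM of the lowest CRE library above the 190 CPM of the highest tdTomato library. This is 1 of 10 members, where 1.46% of all genes were called higher, and the same 1 of 10 with the block, where 4.6% were. Chac1 did not follow, with a log2 fold change of −0.04 (95% confidence interval −0.78 to 0.71). Atf5 and Trib3 were lower in all 3 Top1 cKO-Topot libraries than in any WT-Topot library without being called (log2 fold changes −0.41 and −0.77). These are 2 of 10 members, where 14.1% of expressed genes were lower in this way. Atf4 was the 1 of 10 that was higher without overlap, where 13.3% of expressed genes were.

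The direct comparison of drug with deletion, WT-Topot against Top1 cKO-Veh, gave 0 of 10 calls, where 1.23% of all genes were called lower. At an unadjusted p under 0.05 there was 1 member lower and 0 higher, where 6.71% and 5.4% of all genes were. With the block, with edgeR's exact test and with DESeq2, Atf4 was the 1 of 10 called lower, and with the block 4.8% of all genes were. Its log2 fold change was −0.74 (standard error 0.17, adjusted p = 0.0164, edgeR without the block), and all 3 WT-Topot libraries were below all 3 Top1 cKO-Veh libraries. Chac1, at 0.25 (95% confidence interval −0.48 to 0.98), was not distinguished between both groups. Trib3 had the opposite order, with each WT-Topot library above each Top1 cKO-Veh library (log2 fold change 0.98, standard error 0.56) at very few counts. Without overlap, 1 of 10 members was thus lower (Atf4) and 1 higher (Trib3), where 12.3% and 12.1% of expressed genes were.

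The members' neighbours in the pathway were then examined through lists written from general knowledge, also with earlier results known. Of 28 other ATF4 target genes, among them transporters and enzymes of amino acid and 1-carbon metabolism besides secreted and regulatory proteins, 12 were called lower in WT-Topot relative to WT-Veh, 6 with the deletion alone and 16 with both, and 0 were called higher in any of these comparisons. The respective counts with the block were 19, 18 and 18 lower. Of all genes, 2.04%, 0.126% and 1.21% were called lower in these 3 comparisons, and 5%, 2.95% and 4.02% with the block. These shares also stand beside the lower calls of the lists below. All 27 expressed ATF4 targets of the list had a negative log2 fold change in each comparison. The median log2 fold changes were −1.20, −1.32 and −1.45. Slc7a3, a transporter of cationic amino acids, had log2 fold changes of −1.51, −3.67 and −4.07 in these 3 comparisons. Mthfd2, a mitochondrial enzyme of 1-carbon metabolism, had −1.87, −2.37 and −2.55, and Shmt2, which feeds that pathway from serine, had −1.59, −2.62 and −2.54. Each of these 6 values and the 3 of Slc7a3 passed the threshold. Stc2, a secreted glycoprotein, had −2.83, −2.02 and −3.40, of which the value in Top1 cKO-Veh passed with the block but not without it.

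Within the CRE cultures topotecan left this list without a call (0 of 28), and with the block Slc38a2, a neutral amino acid transporter, was called higher (log2 fold change 0.91, standard error 0.13). The interaction passed for 1 of 28 genes, where 0.398% of all genes were called higher, and for 9 of 28 with the block, where 2.44% were. The 1 gene without the block was again Slc38a2, at 1.80 (standard error 0.33). Its mean was 68.6 ± 16.7 CPM in Top1 cKO-Veh and 128 ± 36.2 CPM in Top1 cKO-Topot cells (SD, n = 3), while WT-Veh cells had 171 ± 31.4 CPM.

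Of 20 cytosolic aminoacyl-tRNA synthetases, which charge tRNAs and are in part ATF4 targets, 4 were called lower in WT-Topot (Cars −1.20, Mars −1.0025, Yars −0.91 and Gars −0.84), none with the deletion alone and 4 with both (Lars −2.15, Yars −1.32, Aars −1.23 and Gars −1.01, all log2 fold changes against WT-Veh). The block gave 11, 12 and 10, with Cars and Vars both at −1.28 in Top1 cKO-Veh. Mars shares 68 exonic bases with Ddit3. Of 16 genes that sense stress or act on eIF2, among them the kinases Eif2ak3 and Eif2ak4, 0 were called in the 3 comparisons without the block, and their medians were −0.12, −0.20 and −0.14. With the block 1, 0 and 2 were called lower, namely Impact (−0.66) in WT-Topot and Eif2s3x and Eif2s2 in Top1 cKO-Topot.

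The ATF6 and XBP1 arm of the unfolded protein response, a parallel pathway that raises chaperones of the endoplasmic reticulum, had 1 of 17 genes called lower in WT-Topot (Herpud1, −1.21) and 0 in both other groups relative to WT-Veh, with medians of −0.07, −0.07 and −0.15. With the block, 1, 1 and 2 were called lower. Of 12 targets of p53, the factor activated by DNA damage, 0 were called lower in any of the 3. In turn 1, 0 and 4 were called higher, where 0.682%, 0.046% and 0.473% of all genes were. With the block 4, 2 and 7 were, where 3.24%, 2.6% and 3.34% of all genes were. Trp53inp1 was at 0.98 in WT-Topot and 1.49 in Top1 cKO-Topot. Genes induced by neuronal activity had 8 of 8 called lower in WT-Topot (Npas4 −3.58), while with the deletion alone 0 of 8 were called (2 of 8 with the block). Their interaction was called higher for 5 of 8, where 0.398% of all genes were, and for 8 of 8 with the block, where 2.44% were.

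**Figure D4:**
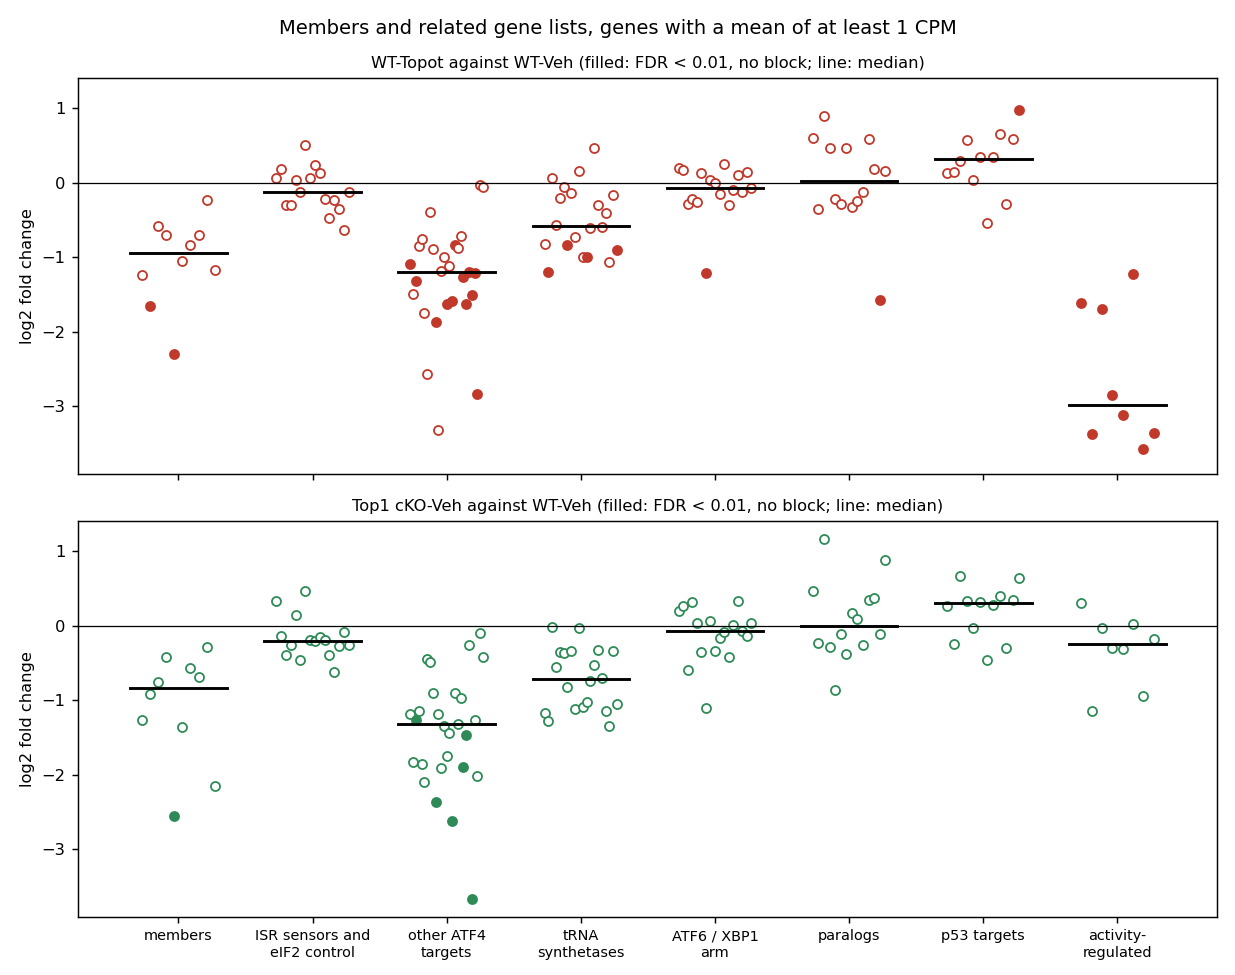
Log2 fold change against WT-Veh of the 10 members and 7 related lists in WT-Topot (upper panel) and Top1 cKO-Veh (lower panel), for expressed genes. Each point is a gene, filled where it passed an FDR of 0.01 without the block, and the line is the median, which for other ATF4 targets was −1.20 and −1.32 and for activity-regulated genes −2.99 and −0.24.

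Paralogs of the members were examined in the same comparisons. Of 16, 1 was called lower in WT-Topot (Trib1, −1.58, standard error 0.32), where 2.04% of all genes were. With the deletion alone 0 were called. With both, 1 was called higher (Trib2, 1.13, standard error 0.20), where 0.473% of all genes were. The medians of the 14 expressed ones were 0.02, −0.01 and 0.29. Sesn1 is also in the list of p53 targets, and Ppp1r15b in that of genes acting on eIF2. Trib3 and its paralogs thus had log2 fold changes of −1.17, −1.58 and 0.16 for Trib3, Trib1 and Trib2 in WT-Topot, and of −2.16, −0.10 and 0.88 in Top1 cKO-Veh, of which Trib2 was called higher with the block. Sesn1 and Sesn3, paralogs of Sesn2, had 0.58 and 0.19 in WT-Topot, and the value of Sesn1 was called higher with the block. Chac2, the other glutathione cyclotransferase, had 0.47 with the drug and −0.38 with the deletion, neither called, against −2.30 and −2.56 for Chac1. Ppp1r15b, the constitutive partner of the eIF2 phosphatase, had −0.12 and −0.26.

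The genes with profiles most like those of Atf4 and Chac1 were sought among 9499 genes whose mean CPM reached 10, by the root-mean-square difference of centred log2(CPM + 1) values over the 12 libraries. Nearest to Chac1, whose own spread on this scale was 1.08, were Mthfd2 (0.346), Nppc (0.405), Psph (0.505), Shmt2 (0.511) and Lrfn5 (0.512). Of these, Mthfd2, Psph and Shmt2 are in the list of 28 other ATF4 targets. That list was written with earlier results of these counts known, so nothing is read from their presence. Nearest to Atf4, with a spread of 0.615, were Man1a (0.200), Fam189a1 (0.226), Slco3a1 (0.236), 4833424O15Rik (0.238) and Frmd5 (0.241), and none of these is in a list used here. Man1a, for example, had means of 56.0 CPM in WT-Veh and 19.4 CPM in WT-Topot cells, and 38.8 CPM in Top1 cKO-Veh and 41.4 CPM in Top1 cKO-Topot cells, the same order of groups as the Atf4 means of 513, 163, 273 and 325 CPM. Atf4 and Chac1 themselves were 0.711 apart, and Ddit4 was the member nearest to Atf4 at 0.440. The 12 points share libraries and groups, so these distances describe likeness only.

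Spread between replicates differed among the members. In WT-Veh libraries the coefficient of variation was 2.29% for Atf5 and 4.83% for Chac1, against 34.2% for Ddit3, 34.3% for Ppp1r15a and 77.1% for Atf3. Replicate 3 was the lowest library of Ddit3 and of Sesn2 in all 4 groups, but the highest of Atf4 and of Chac1 in 3 of 4. For Sesn2 the ratio of WT-Topot to WT-Veh libraries with the same number was −0.16, −0.26 and −0.27 on the log2 scale, a narrow range around a small difference. The labels do not say what a replicate number stands for. Without the block, p-values measure differences against the spread between cultures of a group. With it, they measure them against the spread left once replicate numbers are accounted for. In edgeR both spreads are drawn toward a trend over all genes, so neither is that of the single gene alone. This pooling was stronger with the block, so the blocked calls rest largely on it.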

How the data were processed

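RNA-seq libraries of 12 cultures were used, grouped by the genotype, treatment and replicate number in their labels. Paired-end reads had been filtered with TagDust and mapped to mm9 by TopHat, and rRNA reads discarded, before the authors deposited the raw counts used here, which are sums over RefSeq exons for each gene symbol. The counting program, its strand setting and the tool versions are not given in the sources used here. From these counts, library sizes were scaled by TMM, and each pairwise comparison was made in edgeR 4.0.16 (glmQLFit and glmQLFTest, R 4.3.3) from the 6 libraries concerned, without a filter on genes, with Benjamini-Hochberg adjustment over all 23893 genes and an FDR of 0.01. The interaction was fitted on all 12 libraries. The fit was tested before use on simulated counts, for Top1 cKO-Veh against WT-Veh only. These counts held no replicate effect, and changes were put only into genes with many counts. The interaction, and changes in genes with few counts, were thus not covered. The precision of low genes was limited by 1730164 to 4583777 counts per library.

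The members and all gene lists were chosen with earlier results of these data known. All members were named. Of each other list, up to 4 genes past the FDR with the largest change in a comparison were named, plus paralogs of members, and the 5 genes nearest in profile to Atf4 and to Chac1 with a mean of at least 10 CPM. Outside this rule stand Gfap and Slc1a3, the called astrocyte markers, and Nup62, Il4i1, Mars, Tmem189 and Tulp2, the overlapping genes, which were named after their values or positions were seen.

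Replicate numbers 1 to 3 recur in every group. Deviations from the group means over 13720 genes correlated at 0.261 to 0.485 where 2 libraries of different groups had the same number (18 pairs). The numbers were therefore taken as pairing the samples. Where the numbers differed, the correlations were −0.384 to −0.0494 (36 pairs). Since each group was centred on its own mean, positive values of the first kind pull the second kind below 0. The second kind thus adds no separate evidence of pairing. Values from a blocked fit, with that number as a factor, stand beside those results whose call they alter. No 2 libraries of a group were repeats, since their counts differed with a dispersion index between 6.44 and 10.9. Alternatives were DESeq2 size factors, edgeR's filterByExpr, edgeR's exact test, DESeq2 1.42.0, a fit on all 12 libraries, an FDR of 0.05 and leaving out each library.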

Additional observations from a re-analysis of the deposited data

Results flagged for a closer look

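The interaction of topotecan and genotype passed the FDR of 0.01 for Atf4 and Chac1. Both were chosen with their fold changes between these groups known, so the terms are a description and not independent evidence. The drug effect in Top1 cKO minus that in WT cells was 1.91 on the log2 scale for Atf4 (adjusted p = 0.000407) and 2.52 for Chac1 (adjusted p = 0.00589, both edgeR's interaction term on 12 libraries). The Atf4 term kept its call under all alternatives run, with adjusted p from 2.10e-11 to 0.00224, while that of Chac1 ranged from 2.35e-06 to 0.0169.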

How the results depend on the processing

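Of the log2 fold changes of single members under the alternatives other than an FDR of 0.05, 790 kept their direction and their side of the FDR of 0.01, 36 newly passed it, 10 no longer passed it and 37 changed sign. In WT-Topot relative to WT-Veh, 2 members were called lower without the block (2.04% of all genes) and 6 with it (5%). The number was 3 by edgeR's exact test, 3 by DESeq2 and 4 at an FDR of 0.05. It was 2 to 4 when each library was left out, the highest without WT-Veh replicate 3. In Top1 cKO-Veh relative to WT-Veh it was 1 without the block (0.126% of all genes) and 8 with it (2.95%). There it was 4 by edgeR's exact test, 3 by DESeq2 and 3 at an FDR of 0.05. When each library was left out it was 1 to 2, with 2 without replicate 3 of either group. In Top1 cKO-Topot relative to WT-Veh it was 2 without the block (1.21%) and 7 with it (4.02%), and 1 to 5 when each library was left out. For WT-Topot compared with Top1 cKO-Veh it was 0 without the block (1.23%) and 1 with it (4.8%). It was 1 there by the exact test, by DESeq2 and at an FDR of 0.05. Interactions called higher were 2 without the block (0.398% of all genes) and 3 with it (2.44%). They fell to 1 with filterByExpr, and were 1 to 2 when each library was left out. The share of all genes was counted only with and without the block, so the numbers under other settings have none beside them. The block changed no other call of a member than those given beside the results.

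All 37 values that changed sign belonged to members not called in that comparison. In Top1 cKO-Topot relative to WT-Topot, Ddit4 became 0.0079 with DESeq2 size factors, 0.0112 with filterByExpr and 0.0094 by DESeq2, and Ppp1r15a became 0.0057, 0.0072 and 0.0084. For WT-Topot compared with Top1 cKO-Veh, Atf3 became −0.0034 by the exact test and −0.0204 by DESeq2, and Ppp1r15a 0.0041 with the block. When each library was left out, Sesn2 ranged from −0.041 to 0.3913 in Top1 cKO-Topot relative to WT-Veh. In Top1 cKO-Topot relative to Top1 cKO-Veh the ranges were −0.7018 to 0.5575 for Atf3, −0.3654 to 0.694 for Trib3, −0.0413 to 0.5103 for Chac1 and −0.2459 to 0.2431 for Ppp1r15a. In Top1 cKO-Topot relative to WT-Topot they were −0.1441 to 0.3217 for Ddit3, −0.2034 to 0.2268 for Ddit4, −0.3021 to 0.319 for Chac1, −0.1613 to 0.3401 for Cebpb and −0.2371 to 0.2027 for Ppp1r15a. For WT-Topot compared with Top1 cKO-Veh they were −0.3196 to 0.9386 for Atf3, −0.0826 to 0.5287 for Chac1, −0.2374 to 0.2994 for Sesn2 and −0.2493 to 0.2363 for Ppp1r15a. The Atf3 interaction ranged from −0.0345 to 1.7845. The cause of these changes was not tested. A promoter match in the members was found for 0 with TGATGCAAT, 2 with TGATGCAA and 3 with TGATGNAA, the last chosen after seeing the data. Trib3 and Atf3 had the fewest reads, 1 to 27 and 5 to 88 counts per library, and the widest intervals within the CRE cultures.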
